A study of Rattus norvegicus with 25 samples.

Results

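Cadherins, protocadherins, catenins and integrins are the main families through which brain cells hold on to each other and to the matrix around them, and their transcripts were followed here in the striatum of adolescent rats. Members were chosen by gene symbol alone: names of the form Cdh with a number, Pcdh, Ctnna, Ctnnb or Ctnnd with a number, and Itga or Itgb, apart from Cdh5 and Itgam, which were kept as markers of endothelial cells and microglia. The rule found 58 of the 14506 genes with a single annotated symbol, each with 1 probe set. It also took in 4 genes that share the integrin prefix without encoding a subunit, namely Itgb1bp1, Itgb1bp2, Itgb3bp and Itgbl1. The Pcdha and Pcdhg clusters and the pair Pcdhb9 and Pcdhb10 were each covered by a probe set with several symbols, so that these 3 probe sets were not members.

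All rats were male Lister Hooded offspring killed at postnatal day 35 to 42. Dams of the Con group (n = 8 arrays) had free access to food and water, dams of the Nic group (n = 7) had nicotine dissolved in their drinking water from before mating, and dams of the Con-Pf group (n = 10) were pair-fed, each receiving the amount of food that a matched Nic dam had eaten. Each array held striatal RNA of 1 rat. The comparison of Nic with Con addresses gestational nicotine together with the lower food and fluid intake it brings. The comparison of Con-Pf with Con addresses the limited food, with any stress of pair-feeding, which the authors name as possible. The comparison of Con-Pf with Nic sets limited food against nicotine at like food intake, but Nic dams drank less than Con-Pf dams. Within each comparison these parts cannot be told apart. The litter of each rat was not given. The paper names fewer Con-Pf dams than there are Con-Pf arrays by title, so some of these rats must be littermates. All rats were fitted as independent, so p-values measure the spread between these rats and not between litters. Con-Pf 9 and Con-Pf 10 carry a Con-Pf title but the description of a control, and the methods text gives the sizes of the Con and Con-Pf groups once as in the titles and once the other way round. Both arrays were kept as Con-Pf, and results are given without them where it matters.

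Cadherins are calcium-dependent membrane proteins that bind cadherins of the same kind on the next cell. Inside the cell their tails bind delta and beta catenin, and alpha catenin links this complex to actin. Beta catenin also carries Wnt signals to the nucleus. Clustered protocadherins give single neurons a surface identity by which their own branches avoid each other, while non-clustered protocadherins act in axon growth and synapse remodelling. Integrins are pairs of an alpha and a beta subunit that bind laminin, collagen, fibronectin or counter-receptors on other cells, and talin and kindlin switch them on from inside.

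Of the 58 genes, 40 reached a mean log2 level of 6.97, the median over the probe sets of the table, which was the filter used for testing. All 5 catenins, all 7 non-clustered protocadherins and all 9 clustered protocadherins with a probe set of their own (each a Pcdhb gene) passed it, as did 9 of 14 cadherins. Of the integrin alpha subunits only Itga1, Itga5, Itga6 and Itga7 passed, 4 of 11, and of the beta subunits Itgb1, Itgb2, Itgb5, Itgb6 and Itgb8 passed, 5 of 8. Over the members that passed, the mean over the 25 arrays ran from 7.56 to 11.94 for cadherins, 7.66 to 11.01 for non-clustered and 7.08 to 8.91 for clustered protocadherins, 9.61 to 11.61 for catenins, 7.10 to 9.56 for integrin alpha and 7.59 to 10.35 for integrin beta subunits. Probe sets differ in their response, so these ranges do not rank the genes. The 18 members below the filter had means of 4.33 to 6.93 and included the epithelial cadherin Cdh1 and the leukocyte subunits Itgal, Itga4, Itgad and Itgae.

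All 10 of the striatal neuron markers measured, among them Drd1, Penk and Pde10a, were above the filter, and their mean log2 level lay between 11.65 and 11.85 on every array. The microglial markers had a mean between 8.50 and 8.83, the cortical and thalamic markers between 6.42 and 7.85, and the choroid plexus markers between 6.47 and 10.31. No marker gene above the filter had an adjusted p under 0.05 in any comparison. Only 3 of 6 cortical and thalamic and 3 of 7 choroid plexus markers were above it. All 3 cortical and thalamic markers tested had a higher mean in Nic than in Con, by 0.17 to 0.55. In Con-Pf against Con, 4 of 11 mural and meningeal and 3 of 9 astrocyte markers were lower at an unadjusted limma p under 0.05. None of either list was higher at that p. Over all probe sets 7.76% were lower at that p. The part of these shifts in the adhesion values was not tested. Over the probe sets kept, Con 3 and Con 5 stood apart, with scores of -33.93 for Con 5 and -25.24 for Con 3 on a first principal component that held 30.45% of the variance. The tests against Con were therefore also run without them. In bulk tissue, fewer cells of a type and less RNA per cell cannot be told apart.

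Among the 40 members above the filter 1 gene passed the test in any comparison, and it encodes no adhesion receptor. Itgb1bp1 (also named ICAP-1), a small cytoplasmic protein that binds the tail of integrin beta 1 and holds the integrin in its inactive state, was higher in Con-Pf than in Con. Its log2 level ran from 9.60 over a median of 9.77 to 9.83 in Con, from 9.70 over 9.89 to 10.08 in Nic and from 9.84 over 9.99 to 10.04 in Con-Pf. All 10 Con-Pf rats lay above all 8 Con rats, with a narrow gap between the lowest Con-Pf and the highest Con value, while the Nic rats overlapped both groups. The mean was 9.76 ± 0.08 (SD, n = 8) in Con, for Nic 9.91 ± 0.12 (SD, n = 7) and for Con-Pf 9.96 ± 0.07 (SD, n = 10).

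Itgb1bp1 rose by 0.20 on the log2 scale in Con-Pf relative to Con (SE 0.04, 95% interval 0.11 to 0.29, limma adjusted p = 0.0158). The difference of Con-Pf from Nic was 0.05 (95% interval -0.04 to 0.14). The difference of Nic from Con was 0.15 (95% interval 0.05 to 0.24) and did not pass the adjustment (limma adjusted p = 0.268). In 25 fits that each left out 1 array, the difference of Con-Pf from Con stayed between 0.17 and 0.21 with a limma adjusted p of 0.00571 to 0.0418. It was 0.18 without Con-Pf 9 and 10 (adjusted p = 0.0612), 0.13 with both counted as Con (adjusted p = 0.361) and 0.17 without Con 3 and Con 5 (adjusted p = 0.0972), so that the call ended in each of these.

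The sequence before the start of Itgb1bp1 is shown because it is the 1 member with a called difference. It is taken from RefSeq on GRCr8 (chr6:46564399-46564648, minus strand), the 250 bases before the start that its promoter table uses. That start lies inside the bounds of the annotated gene, which reaches to 46564735. The bases are written 5′ to 3′ with every CG pair in capitals.
Itgb1bp1: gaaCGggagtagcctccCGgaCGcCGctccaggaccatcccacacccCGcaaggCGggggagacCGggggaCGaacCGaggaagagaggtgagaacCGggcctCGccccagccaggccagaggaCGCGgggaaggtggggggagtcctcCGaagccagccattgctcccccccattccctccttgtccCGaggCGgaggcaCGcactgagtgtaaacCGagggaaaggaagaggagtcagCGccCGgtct
It holds 20 CG pairs and 68.4% G and C, against medians of 5 CG pairs and 51.2% over 33469 promoters of the same length, and of 7 CG pairs and 54.4% over the 45 members with an entry. Searched on both strands, it holds none of the letters TGACGTCA (CRE, in 1.59% of all promoters), TGACTCA (AP-1, in 4.05%), GCGTGGGCG (EGR, in 0.478%) or GGGCGG (GC box, in 30.5%). Among the 45 members with an entry, GGGCGG was in 14 (31.1%), the AP-1 letters in Cdh20 alone and the EGR letters in Itgb8 alone. These matches describe the letters of the window only.

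**Figure D1:**
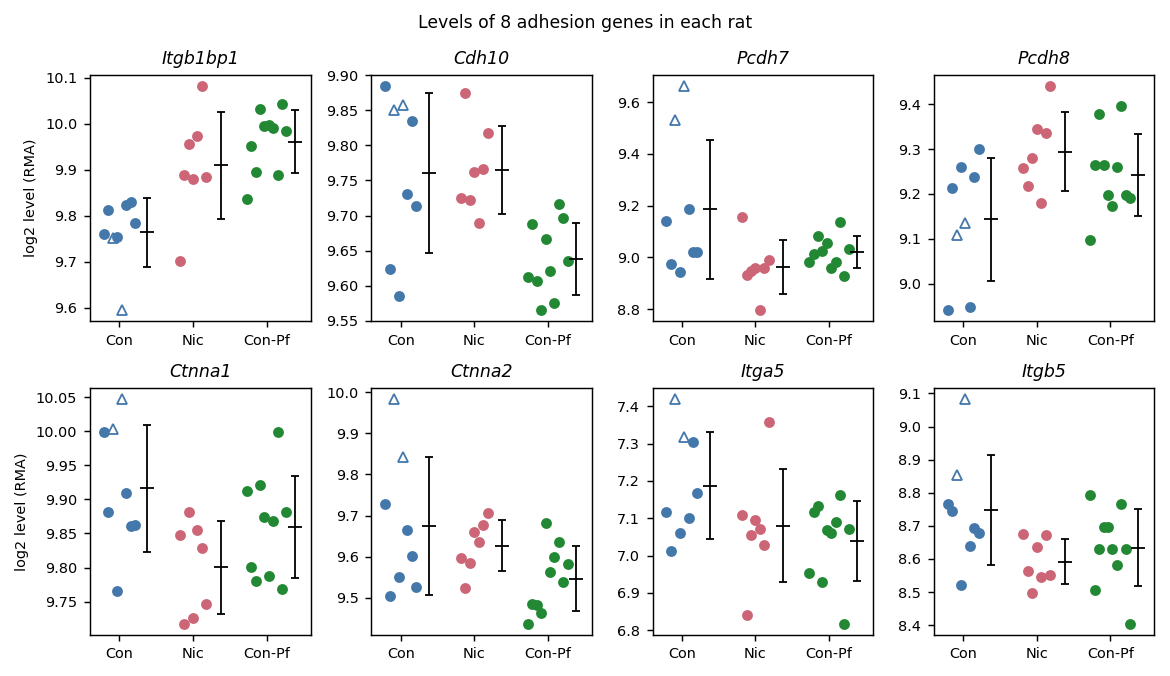
Log2 RMA level of 8 adhesion genes in each rat, by group (Con n = 8, Nic n = 7, Con-Pf n = 10), with the mean and SD as a black bar beside each group and Con 3 and Con 5 as open triangles. Each panel has its own vertical axis, which does not start at 0. The Con-Pf points of Itgb1bp1 lie above all Con points, and in the other 7 genes the groups overlap.

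In Con-Pf against Con, 1 of the 40 adhesion genes above the filter was called (2.5%), beside 1.26% of all 14607 probe sets tested, so the share lay near the background. No member was called lower. At an unadjusted p under 0.05 the count was 9 of 40 (22.5%), beside 22% of all probe sets. Of these 9 genes, 7 were lower and 2 higher in Con-Pf, whereas over all probe sets 7.76% were lower and 14.2% were higher at that p. The median log2 difference of the 40 genes was -0.05 and that of all probe sets 0.02. In all, 25 of the 40 genes (62.5%) had a lower mean in Con-Pf, beside 44.2% of all probe sets. Itgb1bp1 was the 1 member whose Con-Pf and Con ranges did not overlap, beside 0.274% of all probe sets. The cut-offs of the methods, a log2 difference of 0.5 or more in size with an unadjusted p under 0.01, were met by no member and by 0.199% of all probe sets.

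The lower means leaned on Con 3 and Con 5. Without these 2 rats, 21 of the 40 genes were lower and 19 higher in Con-Pf. At an unadjusted p under 0.05, 2 were then lower in place of 7 and 4 higher in place of 2. Leaving out Con 3 alone or Con 5 alone also gave 2 lower genes. Without Con 4, the Con rat with the lowest mean adhesion level, 14 were lower at that p. The count was 3 without Con-Pf 9 and 10 or without Con-Pf 9 alone, 1 with both counted as Con, 2 with array weights and 3 by the methods' t-test. The median over all probe sets was 0.008 without Con 3 and Con 5, beside 0.015 with them. Shares of all probe sets under these alternatives are not given here, so the counts do not show a change particular to the adhesion genes. The differences were also small: the 40 values lay between -0.17 and 0.20, and all 40 of the 95% intervals lay within 0.5 in either direction, with 38 of them within 0.3.

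**Figure D2:**
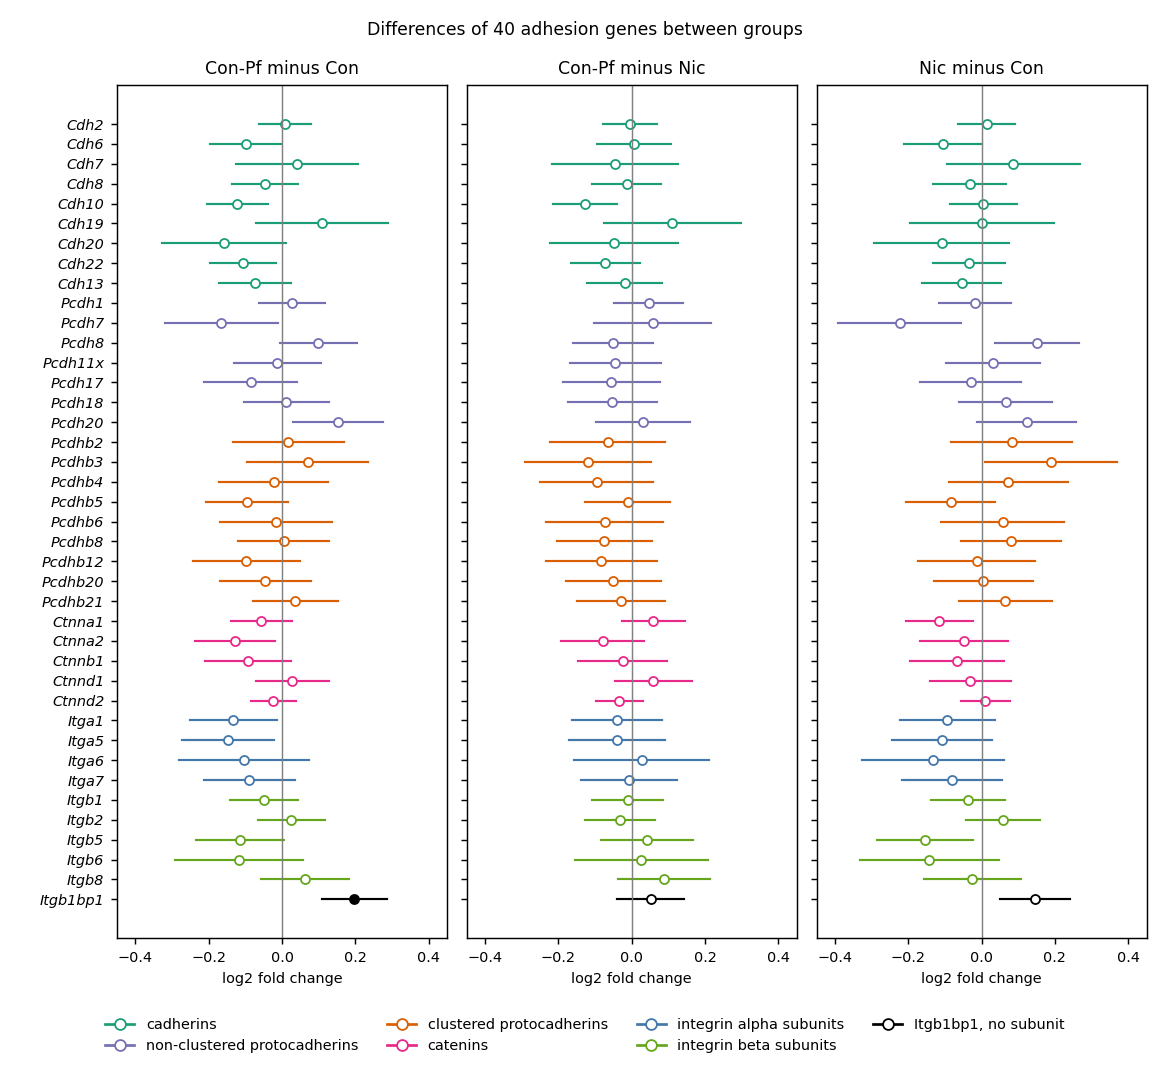
Log2 fold change of each of the 40 adhesion genes above the filter in the 3 comparisons, with 95% intervals from limma as lines and families by colour. A filled point marks an adjusted p under 0.05, and only Itgb1bp1 in Con-Pf minus Con has one.

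Among the cadherins, Cdh10 had the smallest p in the comparison of Con-Pf with Con. It is a type II cadherin of the neuronal surface. Its log2 level ran from 9.59 over a median of 9.78 to 9.89 in Con, from 9.69 over 9.76 to 9.87 in Nic and from 9.57 over 9.63 to 9.72 in Con-Pf. Con-Pf had the lowest median, and its range overlapped those of both other groups. The difference was -0.12 from Con (95% interval -0.21 to -0.04, limma adjusted p = 0.111) and -0.13 from Nic (95% interval -0.21 to -0.04, adjusted p = 0.638), whereas Nic and Con differed by 0.00 (95% interval -0.09 to 0.10). Without Con 4, the lowest Con rat for this gene, the difference from Con was -0.15 and passed the test (limma adjusted p = 0.0476).

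The type II cadherins Cdh22 and Cdh6 differed from Con by -0.11 and -0.10 (adjusted p = 0.172 and 0.218), and Cdh20 by -0.16 with a wide interval of -0.33 to 0.01. Con 3 and Con 5 were the highest rats for Cdh20, and without them its difference of Con-Pf from Con was -0.03. Cdh22 had a log2 level of 9.12 to 9.34 in Con, 9.11 to 9.32 in Nic and 9.01 to 9.29 in Con-Pf, so all 3 groups overlapped. Cdh2, or N-cadherin, the classical cadherin of synaptic junctions, was among the steadiest members. Its level was 10.19 to 10.39 in Con, 10.26 to 10.38 in Nic and 10.19 to 10.39 in Con-Pf, and its differences were 0.01, -0.01 and 0.01 for Con-Pf against Con, Con-Pf against Nic and Nic against Con. The 95% interval of the difference of Con-Pf from Con, -0.06 to 0.08, leaves room for only a small difference.

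Cdh8, a type II cadherin, differed from Con by -0.05 in Con-Pf and -0.03 in Nic. Cdh13, or T-cadherin, which is held to the membrane by a lipid anchor and lacks the catenin-binding tail, differed by -0.07 and -0.05. Cdh7 and Cdh19 had wide intervals: Cdh19 differed from Con by 0.11 in Con-Pf (95% interval -0.07 to 0.29) and by 0.00 in Nic (-0.20 to 0.20). Over the 9 cadherins the median difference was -0.07 for Con-Pf against Con, -0.02 for Con-Pf against Nic and -0.03 for Nic against Con.

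The non-clustered protocadherins spread in both directions. Pcdh7 had the most negative difference of any member above the filter in both comparisons with Con. Its log2 level ran from 8.94 over 9.08 to 9.66 in Con, from 8.80 over 8.96 to 9.15 in Nic and from 8.93 over 9.02 to 9.14 in Con-Pf. Con 3 and Con 5 were the highest Con rats, above every rat of the other groups. The difference from Con was -0.17 in Con-Pf (limma adjusted p = 0.1998) and -0.22 in Nic (adjusted p = 0.268), and without Con 3 and Con 5 it was -0.03 and -0.09.

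Pcdh8, or arcadlin, a protocadherin that neuronal activity induces and that draws N-cadherin off the surface, went the other way. Its log2 level ran from 8.94 over 9.17 to 9.30 in Con, from 9.18 over 9.28 to 9.44 in Nic and from 9.10 over 9.23 to 9.40 in Con-Pf. The groups overlapped, with the 2 lowest values in Con. It differed from Con by 0.15 in Nic (95% interval 0.04 to 0.27, adjusted p = 0.268) and by 0.10 in Con-Pf (95% interval -0.01 to 0.20). Pcdh20 differed from Con by 0.15 in Con-Pf (95% interval 0.03 to 0.28, adjusted p = 0.153) and by 0.12 in Nic. Its Con levels spread widely, from 9.27 to 9.86, while the Con-Pf levels lay between 9.70 and 9.92. Pcdh17, Pcdh1, Pcdh18 and Pcdh11x differed by -0.09, 0.03, 0.01 and -0.01 in Con-Pf against Con, all with intervals that include 0.

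The 9 Pcdhb genes lie side by side in 1 cluster and are close in sequence, so that their probes may read each other's transcripts and their values are not independent. None had an unadjusted p under 0.05 in Con-Pf against Con, where the differences ran from -0.10 to 0.07 with a median of -0.02. Pcdhb5 and Pcdhb12 were at -0.10 each, Pcdhb20 at -0.05, Pcdhb21 at 0.04 and Pcdhb3 at 0.07. In Con-Pf against Nic all 9 were lower, by a median of 0.07 and at most 0.12, and none had an unadjusted p under 0.05. The 3 with the smallest p there, Pcdhb3, Pcdhb4 and Pcdhb8, were at -0.12, -0.10 and -0.07. The largest difference in the cluster was that of Pcdhb3 in Nic against Con, 0.19 (95% interval 0.01 to 0.37, adjusted p = 0.295). Its log2 level ran from 6.80 over 7.22 to 7.53 in Con, from 7.16 over 7.36 to 7.62 in Nic and from 7.00 over 7.28 to 7.46 in Con-Pf, with broad overlap.

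Among the catenins, Ctnna2, the alpha catenin of neurons, differed from Con by -0.13 in Con-Pf (95% interval -0.24 to -0.02, limma adjusted p = 0.174). Its log2 level ran from 9.50 over 9.63 to 9.98 in Con, from 9.52 over 9.64 to 9.71 in Nic and from 9.44 over 9.55 to 9.68 in Con-Pf. Con 3 and Con 5 were again the highest Con rats, and without them the difference was -0.05. Ctnna1, the broadly expressed alpha catenin, had a difference of -0.12 in Nic against Con (95% interval -0.21 to -0.02, adjusted p = 0.268) and of -0.06 in Con-Pf against Con. Ctnnb1, or beta catenin, differed from Con by -0.09 in Con-Pf and -0.07 in Nic, and Ctnnd1, or p120 catenin, which keeps cadherins at the surface, by 0.03 and -0.03. Without Con 3 and Con 5 the difference of Ctnnb1 from Con was -0.01 in Con-Pf and 0.01 in Nic.

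Ctnnd2, the neuronal delta catenin of dendritic spines, had the smallest residual spread of the members above the filter, an SD of 0.05 within groups. Its level was 11.24 to 11.44 in Con, 11.31 to 11.40 in Nic and 11.27 to 11.37 in Con-Pf. The difference of Con-Pf from Con was -0.02 (95% interval -0.09 to 0.04), that of Con-Pf from Nic -0.03 (-0.10 to 0.03) and that of Nic from Con 0.01 (-0.06 to 0.08). At this precision a difference beyond 0.10 lies outside each interval.

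All 4 integrin alpha subunits above the filter had a lower mean in Con-Pf and in Nic than in Con, which are comparisons that share the Con rats. Itga5, the fibronectin receptor subunit, differed by -0.15 in Con-Pf (adjusted p = 0.173) and -0.11 in Nic. Itga1, a collagen receptor subunit, differed by -0.13 (adjusted p = 0.185) and -0.09, the laminin receptor subunits Itga6 and Itga7 by -0.10 and -0.13 and by -0.09 and -0.08. The log2 level of Itga5 ran from 7.01 over 7.14 to 7.42 in Con, from 6.84 over 7.07 to 7.36 in Nic and from 6.82 over 7.07 to 7.16 in Con-Pf, with the groups overlapping. Con 3 and Con 5 held the 2 highest Con values. Without them the differences of Itga1, Itga5, Itga6 and Itga7 from Con in Con-Pf were -0.07, -0.09, 0.04 and -0.01.

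Itgb1, the beta subunit that pairs with each of these 4 alpha subunits and whose tail Itgb1bp1 binds, had a log2 level of 9.89 to 10.19 in Con, 9.94 to 10.11 in Nic and 9.87 to 10.10 in Con-Pf. The ranges overlapped almost completely. Its differences were -0.05 for Con-Pf against Con (95% interval -0.14 to 0.04), -0.01 for Con-Pf against Nic and -0.04 for Nic against Con. Itgb5 differed from Con by -0.16 in Nic (95% interval -0.29 to -0.02, adjusted p = 0.277) and by -0.11 in Con-Pf, with Con 3 and Con 5 as the highest rats. Itgb6 differed from Con by -0.12 in Con-Pf and -0.14 in Nic, Itgb8, a subunit that activates latent TGF-beta, by 0.06 and -0.02, and Itgb2, the beta subunit of leukocytes and microglia, by 0.03 and 0.06.

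In Con-Pf against Nic, 0 of the 40 genes were called, beside 0.185% of all probe sets (0.0137% lower), and the smallest limma adjusted p among the 40 genes was 0.638. Only Cdh10 had an unadjusted p under 0.05, and it was lower, 1 of 40 (2.5%) beside 4.36% of all probe sets, of which 2.54% were lower and 1.82% higher. The 40 differences lay between -0.13 and 0.11, and every 95% interval lay within 0.3 in either direction. The median was -0.03 beside -0.01 over all probe sets. Of the 40 genes 28 (70%) were lower in Con-Pf, beside 55.9% of all probe sets, and no gene had ranges without overlap (0.0822% of all probe sets) or met the cut-offs of the methods (0.103%). In this comparison all 3 cortical and thalamic markers above the filter had a lower mean in Con-Pf, and 2 of them met the cut-offs of the methods. Slc17a7, the vesicular glutamate transporter of cortical neurons, differed by -1.18 and Cck, a neuropeptide, by -0.53 (limma adjusted p = 0.576 and 0.609). Their part in the adhesion values was not tested.

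In Nic against Con, 0 of the 40 genes were called by limma, as were 0% of all probe sets, and 6 had an unadjusted p under 0.05 (15%, beside 16.2% of all probe sets, 3.96% lower and 12.3% higher). By the methods' t-test 0 were called as well. Pcdh7, Ctnna1 and Itgb5 were the 3 lower and Pcdh8, Pcdhb3 and Itgb1bp1 the 3 higher genes at that unadjusted p. The 40 differences lay between -0.22 and 0.19 with a median of -0.02, and 36 of the 40 intervals lay within 0.3. In all 22 genes (55%) were lower and 18 higher in Nic, beside 40.9% lower over all probe sets. None had ranges without overlap (0.0274% of all probe sets) or met the cut-offs of the methods (0.0205%). Without Con 3 and Con 5, 12 were lower and 28 higher, with a median of 0.03 beside 0.017 over all probe sets. The share of all probe sets lower in that fit is not given here.

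**Figure D3:**
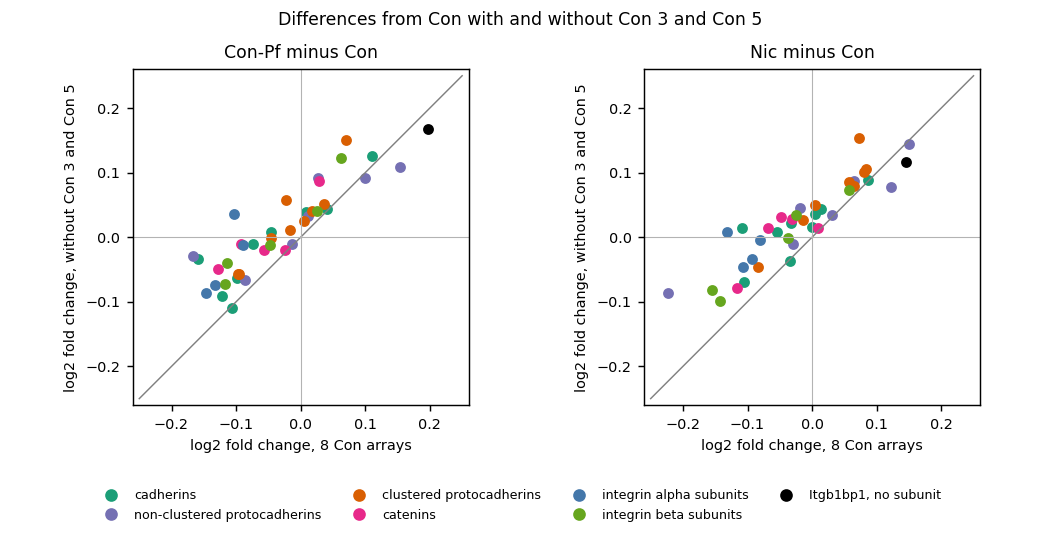
Log2 fold change of the 40 adhesion genes with all 8 Con arrays (horizontal axis) against the same value without Con 3 and Con 5 (vertical axis), for the 2 comparisons with Con. The points share the other arrays, and the grey diagonal marks equal values. Most points lie above the diagonal and Itgb1bp1 lies below it.

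Con 3 and Con 5 carried higher levels of most of the adhesion families. The mean deviation of the 40 genes from their means over all 25 arrays was 0.16 on Con 3 and 0.14 on Con 5, while on the other arrays it lay between -0.15 (Con 4) and 0.09 (Con-Pf 8). The mean deviation of all probe sets was -0.04 on both. Integrin alpha subunits deviated by 0.30 and 0.36 on Con 3 and Con 5, catenins by 0.16 and 0.22, integrin beta subunits by 0.19 and 0.15, and cadherins by 0.13 and 0.16. Itgb1bp1 was at -0.13 and -0.29 on these arrays. It lay below its mean on every Con array, from -0.05 on Con 7 to -0.13 on Con 4 among the others, so only Con 5 stood apart. The part of these 2 rats in the differences from Con is given by the values without them, and what set the 2 rats apart was not tested.

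**Figure D4:**
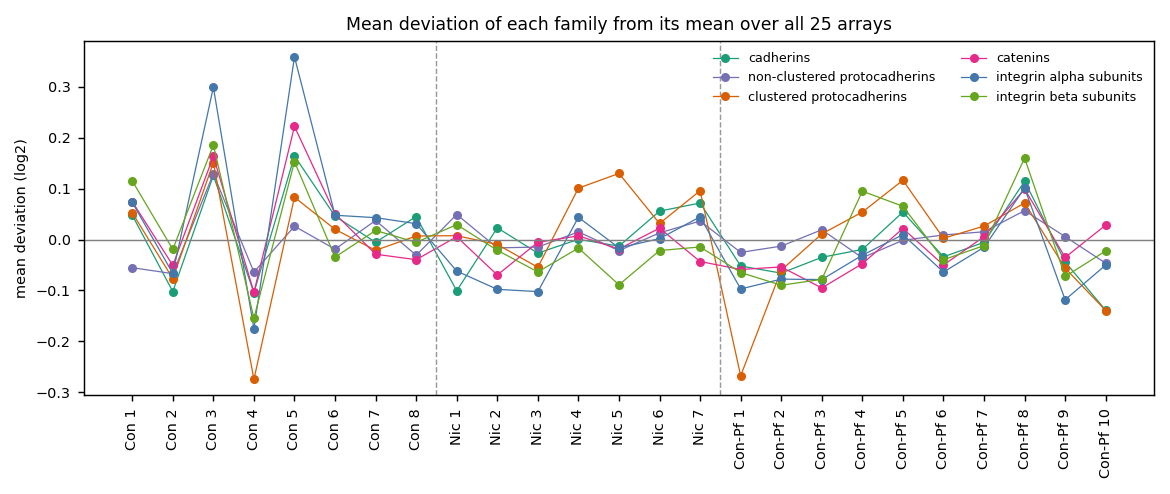
Mean deviation (log2) of each family from its mean over the 25 arrays, for every array in the order Con, Nic, Con-Pf. Con 3 and Con 5 are the highest arrays for integrin alpha subunits and catenins, and Con 4 and Con-Pf 1 are the lowest for clustered protocadherins.

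Across rats, some members varied together within groups. The correlations below are of deviations from the group means over the same 25 arrays, which share normalization and tissue makeup, and they describe these arrays only. Over the 780 pairs of the 40 genes the median r was 0.30, and 0.24 without Con 3 and Con 5. It was 0.50 among the clustered protocadherins, with 18 of 36 pairs above 0.5, and 0.58 among the catenins, but -0.07 among the non-clustered protocadherins. Without Con 3 and Con 5 these medians were 0.49, 0.45 and -0.07. Pairs of other probe sets were not worked out, so these values have no baseline. The Pcdhb probes may also read each other's transcripts.

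The pair with the highest r was Ctnnb1 with Itga6 (r = 0.91, and 0.84 without Con 3 and Con 5), followed by Cdh6 with Itga1 (0.84 and 0.83). Pcdh7 with Ctnnb1 had an r of 0.81 that was 0.64 without these 2 rats, and Pcdhb6 with Pcdhb8 one of 0.76 with and without them. The most negative r was that of Pcdh7 with Itgb1bp1, at -0.56, which was -0.48 without these 2 rats. Without them the most negative r was that of Pcdh11x with Pcdhb12, at -0.62, which was -0.53 over all 25 arrays. Among the 40 members above the filter, the spread within groups was largest for Cdh19, Itga6 and Itgb6, with residual SDs of 0.20, 0.19 and 0.19.

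Lists of partner genes were read from the same fit. Of the integrin adhesion proteins, 20 of the 22 measured were above the filter and 1 was called in Con-Pf against Con (5%, beside 1.26% of all probe sets), Parvb, a parvin that joins integrin-linked kinase to actin. Its mean log2 level was 9.57 in Con, 9.71 in Nic and 9.78 in Con-Pf, and it rose by 0.21 in Con-Pf relative to Con (SE 0.04, limma adjusted p = 0.00253). With Con-Pf 9 and 10 counted as Con the difference was 0.17 and the call ended (adjusted p = 0.156). Bcar1, a docking protein of focal adhesions, differed by 0.16 (adjusted p = 0.0797) and Arhgef7, a Rac exchange factor, by -0.12 (adjusted p = 0.111). In the list as a whole 10 genes were higher and 10 lower, with a median of 0.00, and 8 of the 20 had an unadjusted p under 0.05 (40%, beside 22% of all probe sets), 3 higher and 5 lower. Without Con 3 and Con 5 the differences of Parvb, Bcar1 and Arhgef7 were 0.18, 0.10 and -0.07, and of these Parvb passed (limma adjusted p = 0.0222, and 0.0809 with no filter).

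Of the matrix ligands, 17 of 23 measured were above the filter and 1 was called in Con-Pf against Con (5.88%, beside 1.26% of all probe sets), the matricellular integrin ligand Ccn1, which rose by 0.48 in Con-Pf relative to Con (95% interval 0.30 to 0.66, adjusted p = 0.00264). When Con-Pf 9 and 10 were treated as Con rats its difference was 0.38 and no longer passed (adjusted p = 0.199). Reln, or reelin, a large secreted protein of the matrix, had a mean of 10.14 ± 0.26 (SD, n = 8) in Con, of 9.86 ± 0.08 (SD, n = 7) for Nic rats and of 9.80 ± 0.21 (SD, n = 10) for Con-Pf rats, and its difference of -0.34 between Con-Pf and Con did not pass (limma adjusted p = 0.0553), although it did in 7 of the 42 alternatives tried (adjusted p of 0.00980 to 0.665 over all). At an unadjusted p under 0.05 there were 7 of the 17 ligands (41.2%, beside 22% of all probe sets), 2 higher and 5 lower. Without Con 3 and Con 5 the difference of Ccn1 was 0.46 and passed (adjusted p = 0.0161), and that of Reln was -0.22 (adjusted p = 0.417). Among 8 other members of the cadherin superfamily above the filter none was called, the smallest p being that of Fat3, with -0.19 in Con-Pf (adjusted p = 0.146) and -0.25 in Nic (adjusted p = 0.268) against Con. Among 20 cadherin and protocadherin partners none was called, and Apc, a scaffold of the beta catenin destruction complex, and Vcl, or vinculin, differed from Con by -0.22 and -0.16 in Con-Pf (adjusted p = 0.182 and 0.195). Without Con 3 and Con 5 the differences of Fat3, Apc and Vcl in Con-Pf were -0.08, -0.05 and -0.05, and that of Fat3 in Nic was -0.13. By limma in Con-Pf against Con, 1 of the 8 cadherin superfamily genes had an unadjusted p under 0.05 (12.5%), and it was lower. Of the 20 cadherin and protocadherin partners 5 did (25%, beside 22% of all probe sets), 1 higher and 4 lower. Such shares without Con 3 and Con 5 are not given here for any of the lists. In the comparisons of Con-Pf with Nic and of Nic with Con no gene of these lists was called by limma.

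The 18 members below the filter were read from a fit over all 29214 probe sets. Their differences ran from -0.27 to 0.20 in Con-Pf against Con, from -0.11 to 0.11 in Con-Pf against Nic and from -0.17 to 0.11 in Nic against Con. In that fit 2 of the 58 members were called in Con-Pf against Con, beside 0.329% of all probe sets, namely Itgb1bp1 and Itgal, the alpha subunit of the leukocyte integrin LFA-1. Itgal had a log2 level of 6.57 to 6.75 in Con, 6.48 to 6.64 in Nic and 6.23 to 6.70 in Con-Pf, with overlapping ranges, and differed by -0.22 (limma adjusted p = 0.0479). Without Con 3 and Con 5 its difference was -0.22 and no longer passed (adjusted p = 0.192). The integrin alpha subunit Itga4 differed by -0.27 (adjusted p = 0.137), and by -0.20 without these 2 rats. In the same fit no member was called in Con-Pf against Nic (0.0685% of all probe sets) or in Nic against Con (0%). Levels this low lie near the dim end of the array, and how far they stood above background was not tested.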

How the data were processed

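Each of 25 rats gave 1 Affymetrix GeneChip of striatal RNA. The authors deposited log2 values made with RMA (background correction, quantile normalization and summary by probe set). Affymetrix Expression Console 1.1 is named in the notes of the submitters. Before deposit, the authors had removed arrays of Con and of Nic for quality. They kept 1 sample with a low measured RNA integrity for processing and thought a chip loading problem likely. Whether it is among these 25 arrays is not given. Groups came from the sample titles. Precision is limited by how many arrays there are.

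Of 29214 probe sets, 15310 had 1 gene symbol, 323 several and 13581 none. The 14607 with a mean at or above the median (quantile 0.5) were fitted with limma 3.58.1 in R 4.3.3 (with the package data.table, version 1.17.8), with 1 model over the 3 groups and Benjamini-Hochberg adjustment over all probe sets kept (threshold 0.05). Intervals are 95% and are not adjusted for the number of genes. All 58 members matched a RefSeq gene of the same ID and symbol. Members, lists and tests were chosen with earlier results of these data known. Genes named were members called, the 5 of each family with the smallest p in Con-Pf against Con and the 3 in the other comparisons, all catenins, and up to 3 genes of each partner list. Cdh2, Cdh7, Cdh8, Pcdh11x, Itgal, Itga4 and the pairs of genes that vary together were chosen after their values were seen. So were the cortical, mural and astrocyte markers whose differences are given. No test was made for lists as sets.

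Alternatives were 2 t-tests, a fit of the 2 compared groups, trend and robust moderation, array weights and other filters. Also tried were 2 further normalizations, the handling of Con-Pf 9 and 10, a replicate block, and leaving out arrays. The methods' t-test, named there as Student's, was run here with unequal variances, and the other t-test with pooled variance. The filter at quantile 0.4 and the fit with no filter and without Con 3 and Con 5 were chosen after seeing the data. The fit was tested on simulated data. Plots were made in matplotlib 3.10.9 under Python 3.11.15. The qRT-PCR and DNA methylation measurements were not analysed here.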

Additional observations from a re-analysis of the deposited data

Results flagged for a closer look

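In 120 groups of values (40 adhesion genes in 3 groups), 6 held a rat that stood far from the others of its group by Dixon's criterion, and chance marks about 1 in 20 groups. Itgb1bp1 was low in Con 5, at 9.60 with the nearest Con rat at 9.75. Itgb2 was low in Con 4, at 7.29 (nearest 7.52), and high in Con-Pf 8, at 7.79 (nearest 7.65). Among the clustered protocadherins, Pcdhb5 was high in Nic 4, at 8.00 (nearest 7.80), Pcdhb8 was low in Con 4, at 7.97 (nearest 8.29), and Pcdhb12 was low in Con-Pf 1, at 6.52 (nearest 6.89).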

How the results depend on the processing

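In Con-Pf against Con, 1 adhesion gene was called in 33 of 42 alternatives as in the report. The count was 0 without Con-Pf 9 and 10, with both counted as Con, and without Con 3 and Con 5, also with no filter (added later), and it was 2 with no filter (Itgal and Itgb1bp1) and with the filter at quantile 0.4 (the same 2 genes, an alternative added later). It lay between 1 and 2 when single arrays were left out, the count of 2 coming without Con 4, where Cdh10 was called beside Itgb1bp1. What moved the count was not tested. In the other comparisons the count was 0 in all 42 alternatives, and no member met the study's thresholds in any. The median difference of the 40 genes in Con-Pf against Con was -0.07 with arrays centred on their median and with a further quantile normalization, and 29 genes were then lower in place of 25. Under both, 27 genes were lower in Nic against Con in place of 22. In Con-Pf against Con the medians over all probe sets were then -0.007 and -0.003, beside 0.015 in the main fit. Counting the mean over a gene's probe sets changed nothing, since each member has 1.

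With the replicate number as a block over replicates 1 to 7, 0 adhesion genes were called in each comparison, and the same 21 arrays without the block gave 0 as well. Correlations between rats of the same number were mixed. Over 21 pairs they lay between -0.36 and 0.34, 10 were over 0.1, and 5 of 21 arrays correlated best with their own number. What unrelated numbers would give was not worked out, so these values do not decide whether the numbers mark pairs. In the main fit they were not treated as pairs.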
